A study of Mus musculus with 50 samples.

Results

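The interleukin-1 (IL-1) family ligands and receptors described here are 10 genes taken by name from the 21954 genes of each table: Il1a, Il1b, Il1rn, Il1r1, Il1r2, Il1rap, Il33, Il1rl1, Il18 and Il18rap. The rule names them without a value, but they were chosen with earlier results of these data known. Their RNA was measured in 41 mouse digits after amputation of the terminal phalanx (P3) and in 9 macrophage cultures, each sequenced as 1 library. The non-regenerative (NR) digits came from 9 to 10 week old male C57BL/6 mice and comprised 29 digits taken at 0, 3, 6, 12 and 24 hours (h) and 3, 7, 14 and 21 days (d) after amputation, with 5 digits at 7d and 3 at each other time. The intermediate (INT) digits, from mice of the same strain, sex and age, comprised 3 digits at each of 0h, 24h, 14d and 21d. The labelled amputation level was 60 to 80% of P3 in NR digits, 11 of which lay below the group's limit of 67%, and 41 to 55% in INT digits. The level was 62, 62 and 75% at NR 0h, 64, 64 and 67% at NR 12h and 71, 79 and 79% at NR 21d. Thus no digit of NR 12h was above the limit. The part of the level in differences between times was not tested. Each digit library holds a mixture of the cells around the wound bed. The macrophages were grown from bone marrow of female C57BL/6 mice, 6 to 8 weeks old, and were left in basal medium (M0) or treated for 24h with 20 ng/ml interferon-gamma and 100 ng/ml lipopolysaccharide (M1) or with 20 ng/ml IL-4 (M2), with 3 libraries each. They are a culture model. The study's methods assign several mice to each time after amputation, but the sources do not tie every digit to its own mouse or every macrophage library to its own culture, so p-values measure only the spread between these libraries.

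IL-1 alpha (Il1a) and IL-1 beta (Il1b) are agonists that bind the receptor encoded by Il1r1, which signals together with the accessory protein encoded by Il1rap. The pathway is held back at the receptor by the antagonist encoded by Il1rn, and by Il1r2, a decoy receptor that binds IL-1 without signalling. IL-33 is an alarmin released from damaged cells. It is sensed by ST2, the product of Il1rl1, which uses the same accessory protein and also occurs as a soluble decoy. IL-18 is matured by caspase-1 like IL-1 beta, and Il18rap encodes the accessory chain of its receptor. In skin, keratinocytes hold stores of IL-1 alpha and of the antagonist, while infiltrating myeloid cells are a main source of IL-1 beta.

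Totals of expected counts ran from 1468749 to 13011782 in NR digits, from 3408916 to 11980697 in INT digits and from 15683424 to 27904773 in macrophages. Levels below are normalized TPM, which is the abundance per transcript length that the authors scaled between libraries, and can be compared between genes. A pair of digits, replicate 2 of NR 14d and replicate 2 of NR 7d, stood apart from their groups. Their median distances to the other digits at the same time were 0.341 and 0.310. Distance is 1 minus Spearman's correlation over genes averaging 1 normalized TPM or more. Il1rap was at 0 in the former and Il1a and Il1r2 were at 0 in the latter. Results at 7d and 14d are therefore given with and without these digits. In addition, 5 pairs of digits carry the same mark, date and side in their labels, and whether these are the same mice is not stated. They are replicate 1 of NR 0h and 3 of NR 12h, replicate 2 of INT 0h and 1 of NR 12h, replicate 3 of INT 0h and 2 of NR 12h, replicate 3 of NR 3d and 1 of NR 7d, and replicate 1 of INT 14d and 3 of NR 14d. The summed level of 8 macrophage markers was 8711 to 9965 in the cultures, and none of these markers was at 0 in any state. RNA of fibroblast markers was also present there (6 genes, summed level of 350.5 to 1147), as was that of endothelial markers (6 genes, 39.7 to 88.4).

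In the GRCm38 assembly the 4 receptor genes Il1r2, Il1r1, Il1rl1 and Il18rap lie in 1 cluster on the forward strand of chromosome 1: Il1r2 at chr1:40074079-40125231, Il1r1 at chr1:40225080-40317257, Il1rl1 at chr1:40429570-40465415 and Il18rap at chr1:40515362-40551705. The agonists lie close together on the reverse strand of chromosome 2, with Il1a at chr2:129299610-129309972 and Il1b at chr2:129364570-129371139. Il1rn lies on the forward strand of the same chromosome at chr2:24336853-24351494. Il1rap lies at chr16:26581704-26730117, Il33 at chr19:29925114-29960718 and Il18 at chr9:50554827-50581840. Antisense genes are annotated within Il1b, Il1r2 and Il1rap, and Il18 overlaps Bco2 and Tex12 on the other strand. Since strand-specific counting is not stated in the sources used here, reads of such partners cannot be told apart from those of the members.

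The 150 bases before the first RefSeq start (GRCm38.p6) are shown for 6 of the 7 members called higher at NR 12h, to let the sequence be read beside the values. All 10 members matched the RefSeq promoter table, with 15 promoters of 300 bases. On both strands 4 motifs were searched: the kappaB motif, AP-1 (TGANTCA), C/EBP (TTGCNNAA) and a STAT6-type motif (TTCNNNNGAA), of which no 2 matches overlapped in the stretches shown. Capitals mark a match. Positions are chr2:129309973-129310122 for Il1a, chr2:129371140-129371289 for Il1b (both reverse strand), chr2:24336710-24336859 for Il1rn, chr1:40085943-40086092 for Il1r2, chr19:29924963-29925112 for Il33 and chr1:40429420-40429569 for Il1rl1 (all forward strand).
Il1a: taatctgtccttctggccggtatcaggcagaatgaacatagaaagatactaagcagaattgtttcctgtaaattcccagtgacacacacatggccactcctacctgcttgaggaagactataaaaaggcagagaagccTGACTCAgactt
Il1b: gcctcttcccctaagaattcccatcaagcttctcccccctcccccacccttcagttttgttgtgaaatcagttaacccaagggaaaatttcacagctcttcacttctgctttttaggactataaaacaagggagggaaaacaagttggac
Il1rn: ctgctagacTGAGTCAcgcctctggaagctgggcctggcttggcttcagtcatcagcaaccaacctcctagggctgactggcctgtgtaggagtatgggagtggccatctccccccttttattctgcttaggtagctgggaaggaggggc
Il1r2: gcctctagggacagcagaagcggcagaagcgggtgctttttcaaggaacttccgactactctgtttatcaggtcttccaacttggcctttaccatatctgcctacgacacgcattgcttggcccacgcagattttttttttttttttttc
Il33: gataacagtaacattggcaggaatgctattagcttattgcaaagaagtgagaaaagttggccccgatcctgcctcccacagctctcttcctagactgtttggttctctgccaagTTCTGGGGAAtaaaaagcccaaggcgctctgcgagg
Il1rl1: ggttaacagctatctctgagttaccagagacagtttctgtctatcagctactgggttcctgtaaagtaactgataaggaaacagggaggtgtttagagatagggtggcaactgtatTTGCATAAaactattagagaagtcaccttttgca

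The capitals mark an AP-1 motif in Il1a and in Il1rn, a STAT6-type motif in Il33 and a C/EBP motif in Il1rl1, and none of these motifs is in the stretches of Il1b and Il1r2. Over the 15 member promoters the AP-1 motif was found in 2, compared with 7.81% of all 32851 promoters, and the C/EBP motif in 3, compared with 10.8%. The STAT6-type motif was found in 5 promoters of 4 members (Il18, Il18rap, Il1rn and Il33), compared with 6.95% of all promoters. Promoters 2 and 3 of Il1rn overlap and share the same match, so that site is counted in both. The kappaB motif was found in 1, the second promoter of Il1r1, compared with 4.51% of all promoters. These matches describe the letters of the windows only.

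To find when the family changed after amputation, each later time of NR digits was compared with 0h. RNA of Il1rl1, Il1b, Il33, Il1r2, Il1a, Il1rn and Il18rap rose within 12h, whereas the receptor subunits Il1r1 and Il1rap and the ligand Il18 did not pass the test at any time. A gene was called if it had an edgeR adjusted p-value below 0.05 and changed more than 2-fold. Called higher were 0 of 10 members at 3h, 4 at 6h, 7 at 12h, 6 at 24h, 2 at 3d and 0 at 7d, 14d and 21d, and no member was called lower against 0h. Of all tested genes, 3.23% were called higher at 6h, 6.76% at 12h, 5.57% at 24h and 0.557% at 3d, and 1.62%, 4.64%, 5.14% and 0.166% lower. In either direction, 0% of genes were called at 3h, 0.0537% at 7d, 0% at 14d and 0.452% at 21d. Without a call, 1362 genes at 3h and 1044 at 14d had an unadjusted p below 0.05. DESeq2 called 1 member at each of these times (Il18 at 3h, Il1rl1 at 14d), and the share of all genes it called is not given. The median log2 fold change of the members was 1.1 at 6h, 2.43 at 12h and 1.76 at 24h, compared with -0.03, -0.03 and -0.04 over all tested genes. These comparisons share the same 3 digits of 0h. All digits lay above those of 0h for 2 members at 3h, 8 at 6h, 7 at 12h, 7 at 24h and 3 at 3d. Among genes averaging 1 normalized TPM or more, this held for 8.07%, 13.49%, 18.08%, 16.22% and 8.49%. All digits lay below those of 0h for 10.49%, 14.71%, 18.73%, 18.27% and 7.62% of such genes, and for 0 members. In a bulk digit, a change in the number of cells of a type and a change in RNA per cell cannot be told apart.

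**Figure D1:**
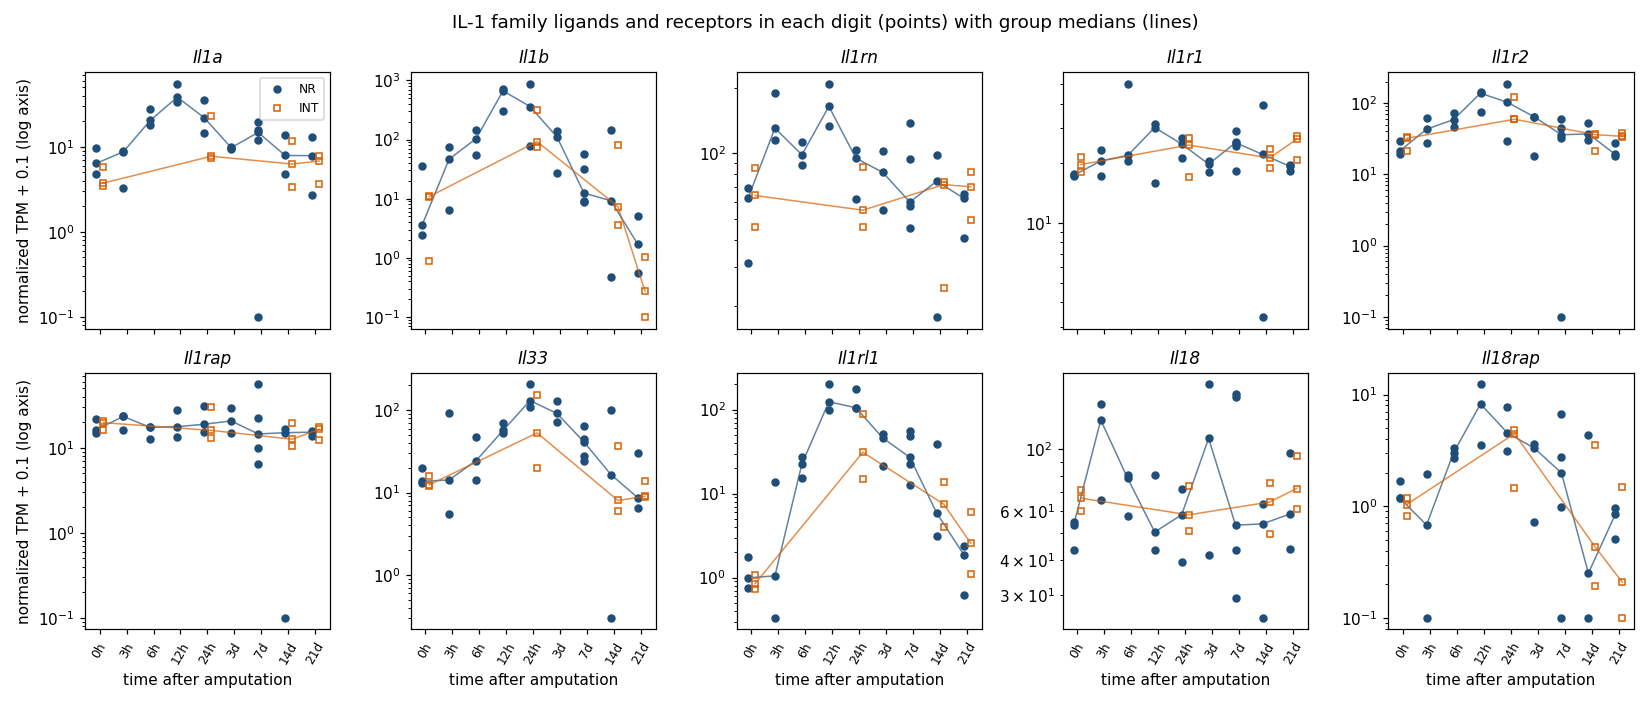
Normalized TPM + 0.1 (log axis) of the 10 members in each of the 29 NR and 12 INT digits against time after amputation, with 1 point per digit and a line through the group medians. Il1b and Il1rl1 span the widest range, with medians at NR 12h of 668 and 124, while Il1r1 and Il1rap stay within narrow bands of group medians.

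Of these calls, the 7 at 12h held in all 6 fits that left out 1 digit. In 1 fit of all digits with the date period in the labels (an earlier and a later one) as a term, 2 of them were kept, Il1b and Il1rl1. Il1a, Il1rn, Il1r2, Il33 and Il18rap kept log2 fold changes of 2.59, 1.68, 2.20, 2.29 and 2.98 there but did not pass (adjusted p = 0.0903, 0.0613, 0.11, 0.270 and 0.259). All digits of 12h and 1 of the 3 digits of 0h belong to the earlier period. The call of Il33 at 12h was lost in each of the 3 fits of all digits (adjusted p = 0.051 to 0.270). At 6h, 1 member was called without replicate 2 of NR 0h or replicate 2 of NR 6h, and 2 without replicate 3 of NR 0h or replicate 1 of NR 6h. At 24h, 3 members were called without replicate 2 of NR 0h or without replicate 1 or 3 of NR 24h. At 3d, 5 members were called without replicate 2 of NR 3d, and at 7d 1 member, Il1rl1, without replicate 2 of NR 7d. The shares of all genes called in these reduced fits are not given, so the counts show only how calls depend on single digits. Il1rl1 at 6h, 12h, 24h and 3d Il1b at 12h and 24h and Il33 at 24h were called in every fit tried.

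Both agonists were called higher from 6h to 24h, but some of these calls depended on single digits. Of the 6 fits that left out 1 digit, 2 kept the call of Il1b at 6h. The call of Il1a was kept in 3 of 6 at 6h and in 3 of 6 at 24h. Il1b was measured at 36.1, 2.37 and 3.49 normalized TPM in the 3 digits of 0h, at 143, 104 and 55.2 at 6h, at 668, 310 and 718 at 12h and at 362, 78.0 and 888 at 24h. Every digit from 6h to 24h was above every digit of 0h, although replicate 1 of 0h was well above the other two, and the 3 digits of 24h differed widely. The log2 fold change against 0h was 3.99 ± 0.75 (SE) at 6h (adjusted p = 0.0253), 6.53 ± 0.80 at 12h (adjusted p = 0.00235) and 6.14 ± 1.06 at 24h (adjusted p = 0.00755). Leaving out 1 digit moved the value at 12h between 5.98 and 7.78. Within the earlier date period, which holds the highest digit of 0h alone, the ratio of means against 0h was 3.42 at 6h, 15.7 at 12h and 17.3 at 24h, and within the later period it was 18.9 at 6h and 26.6 at 24h. At 3d Il1b was at 139, 27.3 and 111, with a log2 fold change of 3.97 ± 0.87 that did not pass (adjusted p = 0.0986). At 21d it had 0.461, 1.58 and 4.99, which overlaps the digits of 0h. At 14d the 3 digits had 9.13, 0.370 and 144, so its digits differed widely.

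Il1a was at 6.31, 4.71 and 9.68 normalized TPM at 0h, at 27.5, 20.4 and 17.9 at 6h, at 55.5, 34.0 and 38.3 at 12h and at 21.9, 14.4 and 35.8 at 24h. The digits of 6h, 12h and 24h did not overlap those of 0h. Il1a rose by a log2 fold change of 1.71 ± 0.32 (SE) at 6h (adjusted p = 0.0242), 2.68 ± 0.33 at 12h (adjusted p = 0.00235) and 1.85 ± 0.40 at 24h (adjusted p = 0.0179). By 3d the digits had 9.31, 9.68 and 9.91, close to those of 0h. At the 12h peak the median level per length of Il1a (38.3) was below that of Il1b (668), whereas at 0h Il1a (6.31) and Il1b (3.49) overlapped.

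The antagonist Il1rn was already abundant at 0h, at 31.4, 61.9 and 69.2 normalized TPM. At 12h it had 209, 133 and 164, above every digit of 0h, and it rose by a log2 fold change of 1.72 ± 0.31 (adjusted p = 0.00998). Its values of 115, 130 and 188 at 3h were also above all of 0h, but the difference was not called. At 3h, 8.07% of genes averaging 1 normalized TPM or more lay wholly above 0h. At 24h it had 94.8, 61.5 and 103 and overlapped 0h, with a log2 fold change of 1.03 ± 0.34 (adjusted p = 0.0692). Over the 13 digit groups, the highest median of Il1rn was 3.0 times the lowest, a smaller span than the 10.5 times of Il1a.

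To set the antagonist against the agonists, the ratio of Il1rn to the sum of Il1a and Il1b was computed within each library, with 0.1 added to both sides. At 0h the log2 ratio had a median of 2.39 and ran from -0.43 to 3.11. It had a median of 1.38 at 3h (from 1.16 to 2.94), of -0.34 at 6h, of -1.79 at 12h (from -2.21 to -1.38) and of -2.02 at 24h (from -3.17 to -0.59). Thus, at 12h the antagonist RNA was at 0.288 of the summed agonist RNA per length. The median returned through -0.23 at 3d, 1.34 at 7d and 1.78 at 14d to 2.39 at 21d. The ratio was -1.31 ± 1.09 (SD, n = 9) over NR digits of 6 to 24h and 1.48 ± 1.21 (SD, n = 11) over those of 7 to 21d, a difference of -2.79 (exact permutation test, two-sided, p = 0.000191, adjusted p = 0.00114 over 6 ratio tests). This pools several times and compares phases, not replicates of 1 time, and the digits of 3h and 3d are in neither phase. With the 3h digits counted as acute, a choice made after seeing the data, the difference was -2.0 (exact permutation p = 0.00548). By date period, the difference was -3.84 (7 against 3 digits, exact p = 0.0167) within the earlier and -1.37 (2 against 8, exact p = 0.311) within the later period. Without the pair of digits that stood apart it was -2.92 (exact p = 0.00037).

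**Figure D2:**
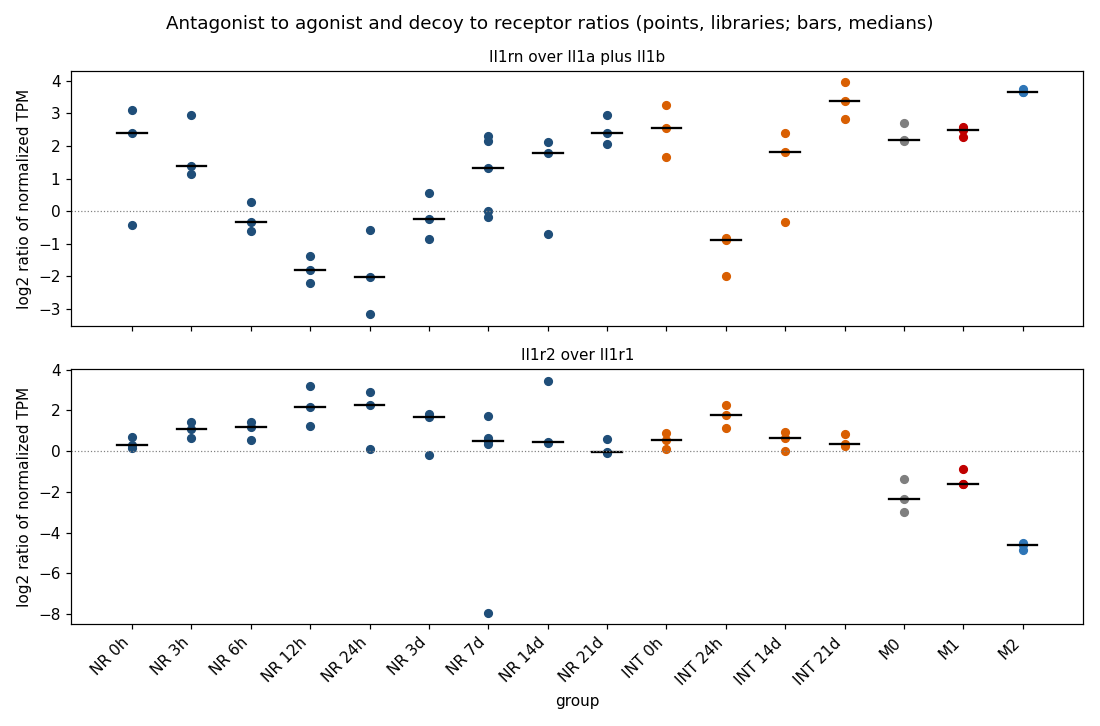
Log2 ratio of normalized TPM (0.1 added to both sides) of Il1rn to the sum of Il1a and Il1b (upper panel) and of Il1r2 to Il1r1 (lower panel), with 1 point per library and a bar at each group median. The upper ratio is lowest at NR 12h and 24h, with medians of -1.79 and -2.02, and 1 digit of NR 7d lies at -7.94 in the lower panel because Il1r2 is at 0 there.

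Among the receptors of IL-1 itself, the decoy Il1r2 changed, and the signalling chains Il1r1 and Il1rap did not pass the test. Il1r2 was at 19.3, 21.1 and 28.9 normalized TPM at 0h, at 72.6, 58.6 and 46.6 at 6h, at 144, 73.9 and 138 at 12h and at 103, 29.0 and 188 at 24h. All digits of 6h to 24h were above those of 0h, but replicate 2 of 24h only barely. The log2 fold change was 1.45 ± 0.24 (SE) at 6h (adjusted p = 0.0183), 2.73 ± 0.30 at 12h (adjusted p = 0.00134) and 2.54 ± 0.56 at 24h (adjusted p = 0.0188). Of the 6 fits that left out 1 digit, 3 kept the call at 6h and 2 that at 24h. Within date periods the ratio of means at 24h against 0h was 7.52 in the earlier and 1.16 in the later period, where 1 digit of 24h is compared with 2 of 0h.

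The signalling receptor Il1r1 was at 17.1, 17.3 and 17.5 normalized TPM at 0h and at 15.9, 31.3 and 30.2 at 12h, where the groups overlapped, with a log2 fold change of 0.59 ± 0.24 (adjusted p = 0.116). At 24h its 3 digits (21.1, 26.6 and 24.9) were above those of 0h, with a log2 fold change of 0.50 ± 0.16 (adjusted p = 0.0664). The accessory protein gene Il1rap was at 14.7, 21.9 and 16.3 at 0h and at 17.7, 13.2 and 27.6 at 12h, which overlap, with a log2 fold change of 0.27 ± 0.22 (adjusted p = 0.413). The highest group median was 1.75 times the lowest for Il1r1 and 1.86 times for Il1rap. The log2 ratio of decoy to receptor, Il1r2 over Il1r1, was 1.67 ± 1.04 (SD, n = 9) over NR digits of 6 to 24h and 0.004 ± 2.82 (SD, n = 11) over those of 7 to 21d. The difference of 1.67 did not pass after adjustment (exact permutation p = 0.0493, adjusted p = 0.148). It was 1.17 (exact p = 0.00889) without the digits that stood apart, 1.1 (exact p = 0.133) in the earlier and 0.977 (exact p = 0.578) in the later date period.

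The alarmin receptor gene Il1rl1 had the largest span of the family after Il1b. It was nearly silent at 0h, at 1.64, 0.659 and 0.895 normalized TPM, and stayed at 0.95 and 0.233 in a pair of digits of 3h, with 13.6 in the third. It was at 26.8, 22.5 and 15.3 at 6h, at 98.7, 124 and 199 at 12h and at 105, 105 and 176 at 24h. From 6h on, every digit up to 7d was above every digit of 0h. At 14d this held in normalized TPM but not relative to all counts. The log2 fold change against 0h was 3.82 ± 0.42 (SE) at 6h (adjusted p = 0.00433), 6.58 ± 0.45 at 12h (adjusted p = 0.000283), 6.44 ± 0.44 at 24h (adjusted p = 0.000136) and 4.34 ± 0.46 at 3d (adjusted p = 0.00571). It was also the 1 member called in both steps between times that were tested: the log2 fold change was 2.74 ± 0.30 at 12h against 6h (adjusted p = 0.0272, with 0.0641% of genes called higher and 0% lower) and -2.04 ± 0.32 at 3d against 24h (adjusted p = 0.0171, with 1.5% of genes called lower and 1.26% higher). The first of these calls was lost without replicate 1 or 3 of NR 12h or replicate 2 or 3 of NR 6h, and the second without replicate 3 of NR 3d or replicate 1 or 3 of NR 24h. Over all such fits the log2 fold changes ran from 2.41 to 2.93 and from -2.39 to -1.73.

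Il1rl1 remained at 56.1, 27.0, 12.6, 49.0 and 22.5 normalized TPM in the 5 digits of 7d, where its log2 fold change of 4.33 ± 0.62 did not pass (adjusted p = 0.0695), and it was called there without replicate 2 (log2 fold change of 4.32, adjusted p = 0.0183). At 14d it was at 5.76, 3.03 and 38.6 normalized TPM, above all of 0h, with a log2 fold change of 3.30 ± 1.1 (adjusted p = 0.509), and of 3.84 without replicate 2 (adjusted p = 0.0783). For replicate 2 this rests on the scaling: its normalized TPM sum to 3362791, and the next highest sum of a digit was 1434851. Its Il1rl1 had 16.2 of 8229434 expected counts, compared with 22.8 of 4747702 in replicate 1 of 0h. Relative to all counts it was thus not above that digit. The neutrophil marker sum of these 3 digits was 92.9, 474 and 2712. At 21d Il1rl1 was back at 1.78, 0.523 and 2.27. Within the date periods, the ratio of means at 24h against 0h was 85.6 in the earlier and 135 in the later period. All digits of 12h belong to the earlier period, in which their mean was 85.7 times that of the single digit of 0h.

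The ligand Il33 was expressed at 0h, at 19.6, 12.9 and 13.6 normalized TPM, and was first called at 12h, compared with 6h for its receptor (the difference in timing was not tested). It was at 47.3, 14.1 and 24.4 at 6h, which overlaps 0h, with a log2 fold change of 1.19 that did not pass (adjusted p = 0.104). The digits of 12h (56.7, 53.4 and 70.0), 24h (131, 110 and 206) and 3d (129, 91.3 and 71.3) were all above those of 0h. The log2 fold change was 2.19 ± 0.20 (SE) at 12h (adjusted p = 0.000686), 3.55 ± 0.30 at 24h (adjusted p = 0.0004) and 2.91 ± 0.26 at 3d (adjusted p = 0.00399). At 21d Il33 had 8.54, 6.41 and 29.9 and overlapped 0h. In 3h digits, 1 had 91.3 against 14.1 and 5.37 in the others, and it was replicate 3, in which Il1rl1 was 13.6. Its library had the fewest counts of all digits, at 1468749.

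Il18 did not follow the other ligands. It was at 53.5, 54.4 and 43.5 normalized TPM at 0h, at 127, 145 and 65.6 at 3h, at 80.4, 50.3 and 43.4 at 12h and at 39.2, 71.8 and 58.0 at 24h. The 3h digits were above all of 0h, but with a log2 fold change of 1.22 the difference was not called (adjusted p = 0.309). The digits of 12h and 24h overlapped those of 0h, with log2 fold changes of 0.26 ± 0.27 (adjusted p = 0.537) and 0.21 ± 0.25 (adjusted p = 0.604). The accessory receptor chain Il18rap was low throughout, at 1.59, 1.09 and 1.09 at 0h, 12.2, 3.44 and 8.14 at 12h and 7.62, 3.03 and 4.43 at 24h. Both later groups lay above 0h, and it rose by a log2 fold change of 2.98 ± 0.54 at 12h (adjusted p = 0.00974) and 1.66 ± 0.47 at 24h (adjusted p = 0.0437). The call at 24h was lost without replicate 1 or 3 of NR 24h or replicate 2 or 3 of NR 0h, with log2 fold changes of 1.25 to 2.0 over the 6 fits.

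The order of the members per length changed with time. At 0h the highest medians were those of Il1rn (61.9) and Il18 (53.5), whose digits overlapped, and the lowest was that of Il1rl1 (0.895). At 12h Il1b (668) was first and did not overlap the second, Il1rn (164), while Il1rn, Il1r2 (138) and Il1rl1 (124) overlapped each other. At 24h Il33 (131) and Il1rl1 (105) followed Il1b (362), and the ranges of these 3 genes overlapped. At 21d Il1rn (62.0) and Il18 (58.3) were again first. Across the 41 digits Spearman's rho of normalized TPM was 0.807 between Il1b and Il33, 0.798 between Il33 and Il1rl1 and 0.765 between Il1b and Il1rl1, whereas Il18 had a rho of -0.205 to 0.372 with the other members. These points share libraries and times, so the values are descriptive.

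Markers of neutrophils moved with these genes. The summed level of 8 neutrophil markers was 23.3 to 36.8 normalized TPM at NR 0h, 16.0 to 112 at 3h, 195 to 281 at 6h, 447 to 1210 at 12h, 1202 to 1455 at 24h, 700 to 1147 at 3d, 95.2 to 1004 at 7d, 92.9 to 2712 at 14d and 9.44 to 32.6 at 21d, and of the defining markers Ly6g was at 0 in all digits of 12h. Of the tested markers, 3 of 5 were called higher at 6h, 7 of 7 at 12h, 4 of 6 at 24h and 2 of 6 at 3d. In the macrophage cultures, normalized apart, the same sum was 381.1 to 396.3 in M0, 168.9 to 200.9 in M1 and 435.3 to 490.5 in M2. The sum alone therefore does not identify neutrophils. Over the 41 digits the rho with the neutrophil sum was 0.82 for Il1rl1, 0.758 for Il33, 0.711 for Il1b, 0.622 for Il18rap and 0.604 for Il1r2, compared with 0.238 for Il1rn. The relation did not hold in every digit: at 7d Il1b was at 8.78 to 57.3, and replicate 4 of 7d had the lowest neutrophil sum of its group (95.2) with the second highest Il1rl1 (49.0). The part of these cells in the member levels was not tested. The mast cell sum was 39.8 to 89.1 at 0h and 110 to 159 at 12h, and of 5 tested mast cell markers 1 was called higher at 12h, Hdc (log2 fold change of 5.28), while Cpa3, Mcpt4, Kit and Ms4a2 were not called. At 24h Hdc was again called higher (4.82), while Cpa3, Tpsb2, Kit and Ms4a2 were not called. Hdc was also called higher in M1 against M0 (4.95). There the mast cell sum was 21.8 to 26.3 in M1 and 2.77 to 4.67 in M0, with Mcpt4, Cma1, Tpsb2 and Fcer1a at 0 in both. The sum alone therefore does not identify mast cells. The rho with the mast cell sum was 0.673 for Il1b, 0.554 for Il18rap, 0.553 for Il33 and 0.507 for Il1rl1, and the part of mast cells was not tested. Macrophage markers gave 1 call of 8 at 12h and 0 of 7 at 24h, and keratinocyte markers gave 2 higher and 1 lower of 8 at 12h. Of 6 fibroblast markers, Col1a1 was called lower at 12h (log2 fold change of -1.02), and Col1a1 (-1.40) and Col1a2 (-1.48) at 24h. Of 6 endothelial markers, Vwf was called lower at 12h (-1.65) and 24h (-1.83), and Cdh5 higher at 24h (1.0). The rho with the fibroblast sum was -0.501 for Il1b and -0.506 for Il18rap. Of the markers of T and natural killer cells, 1 was tested at 12h and was not called.

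**Figure D3:**
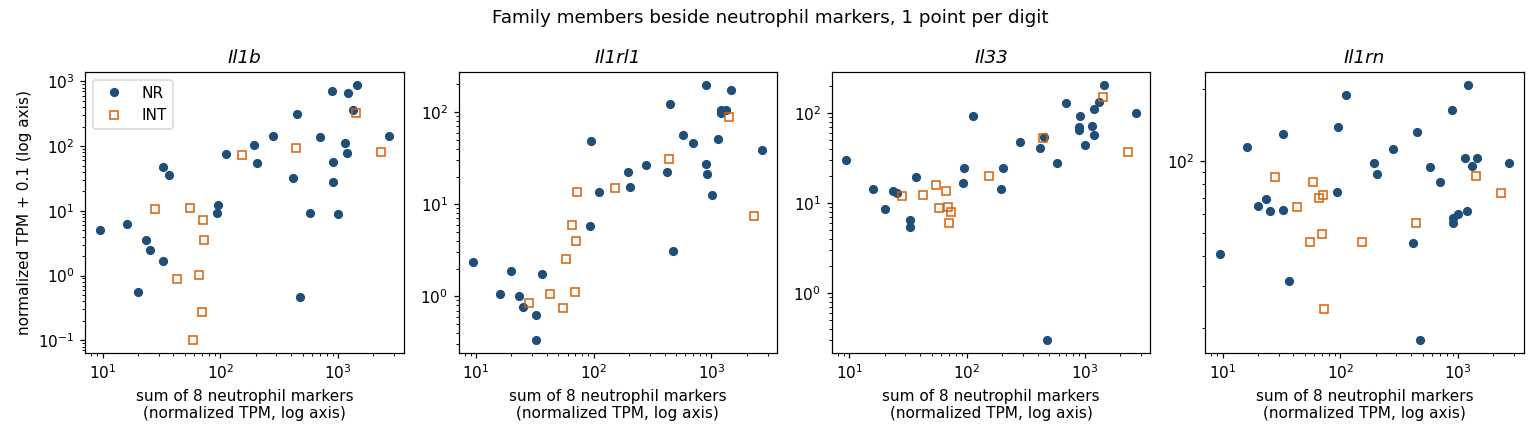
Normalized TPM + 0.1 of Il1b, Il1rl1, Il33 and Il1rn (log axis) against the summed normalized TPM of 8 neutrophil markers (log axis), with 1 point for each of the 29 NR (circles) and 12 INT (squares) digits. Digits with a high marker sum are mostly high in Il1b, Il1rl1 and Il33 (rho of 0.711, 0.82 and 0.758), and Il1rn shows less relation (rho of 0.238).

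INT digits were compared with their own 0h and with NR digits of the same time. At INT 24h, Il1rl1 was at 87.5, 14.8 and 31.0 normalized TPM, against 0.970, 0.745 and 0.637 at INT 0h, and Il1b was at 319, 73.4 and 92.6 against 0.778, 10.7 and 10.9. For both genes, all digits of 24h were above all digits of 0h, and replicate 1 was far higher than the other two. Among genes averaging 1 normalized TPM or more, 9.56% lay wholly above INT 0h at INT 24h and 11.43% wholly below. At INT 14d these shares were 9.42% and 8.11%. The log2 fold changes were 5.01 ± 0.68 (SE) for Il1rl1 (adjusted p = 0.0926), 4.63 ± 0.94 for Il1b (adjusted p = 0.12), 2.57 ± 0.72 for Il33 (adjusted p = 0.177) and 1.63 ± 0.31 for Il1r2 (adjusted p = 0.12). Thus 0 of 10 members were called with edgeR, with 0.0152% of all genes called and 2034 genes at an unadjusted p below 0.05. DESeq2 called 3 members (Il1b, Il1r2 and Il1rl1), and the share of all genes it called is not given. Leaving out replicate 1 or 2 of INT 24h gave 1 call. The neutrophil marker sum was 1425, 153 and 440 in the 3 digits, in the same order as Il1rl1, and its part was not tested.

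At INT 14d, Il1rl1 was at 7.38, 3.91 and 13.5 normalized TPM, above every digit of INT 0h. It was called higher, with a log2 fold change of 2.47 ± 0.43 (adjusted p = 0.027), as the 1 member of 10, against 1.49% of all genes called higher and 0.187% lower. The call was lost without replicate 3 of INT 14d or without any 1 digit of INT 0h, with log2 fold changes of 2.1 to 2.73 over the 6 fits. The neutrophil marker sum was 2314, 70.6 and 72.6 in the 3 digits of INT 14d, which is not the order of Il1rl1, and its part was not tested. At INT 21d none of the 9 tested members was called, with 1.39% of genes called in either direction. Il1rl1 had 1.0, 2.47 and 5.89 there.

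Between INT and NR digits of the same time, 0 members were called at 0h, 24h, 14d and 21d, with 0%, 0%, 0% and 0.648% of all genes called. At unadjusted p below 0.05 there were 491 genes at 0h, 1472 at 24h and 270 at 14d, and DESeq2 also called 0 members at each time. At 24h the log2 difference of INT from NR was -1.55 ± 0.56 (SE) for Il1rl1 (adjusted p = 0.392), -1.39 ± 0.80 for Il1b (adjusted p = 0.525) and -1.01 ± 0.69 for Il33 (adjusted p = 0.581). Over the 6 fits at 24h that left out 1 digit, 0 to 3 members were called. Without replicate 1 of INT 24h, 3 members (Il1a, Il33 and Il1rl1) were called lower in INT than in NR digits. Their log2 differences were -1.70 (adjusted p = 0.042), -2.27 (adjusted p = 0.0291) and -2.50 (adjusted p = 0.00931). The share of all genes called in that fit is not given, so this shows only that the calls depend on that digit. The rise from 0h to 24h differed between INT and NR digits by -1.43 ± 0.85 for Il1rl1 (adjusted p = 0.652), -1.52 ± 1.46 for Il1b (adjusted p = 0.771) and -0.98 ± 0.83 for Il33 (adjusted p = 0.74). No gene was called in the tests of this difference at 24h, 14d and 21d (0%), with 1132, 507 and 846 genes at an unadjusted p below 0.05, and DESeq2 called 0 members in each.

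The same genes were then examined in macrophages, which were normalized apart from the digits, so levels are not tested across the tables. In M1 macrophages the ligands and the antagonist rose, and in M2 macrophages the receptors Il1r1, Il1rap and Il1rl1 rose. Of 10 members, 6 were called higher and 0 lower in M1 against M0, with 20.1% of all genes called higher and 26% lower. Of 8 tested members, 5 were called higher in M2 against M0, and 0 lower, with 11% of genes called higher and 11.3% lower. Both comparisons share the 3 M0 cultures. Groups of cultures that do not overlap were common. Among genes averaging 1 normalized TPM or more, 42.9% lay wholly higher in M1 than in M0 and 43.37% wholly lower.

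Il1b was at 17.5, 12.5 and 15.9 normalized TPM in M0, at 1111, 1119 and 1158 in M1 and at 12.1, 11.9 and 12 in M2. M1 lay far above both other states, and M2 was just below M0. The log2 fold change was 6.26 ± 0.09 (SE) in M1 (adjusted p = 2.47e-14) and -0.37 in M2, which is under 2-fold and was not called (adjusted p = 0.0141). Il1a was at 1.95, 2.03 and 2.26 in M0, at 190, 229 and 214 in M1 and at 11.3, 10.2 and 9.38 in M2. It rose in both, by a log2 fold change of 6.68 ± 0.10 in M1 (adjusted p = 3.79e-14) and 2.25 ± 0.12 in M2 (adjusted p = 3.32e-08).

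Il1rn was the most abundant member per length in each state. It was at 89.3, 94.9 and 81.7 normalized TPM in M0, at 7381, 8096 and 6649 in M1 and at 318, 277 and 268 in M2. The 3 states did not overlap. The log2 fold change was 6.94 ± 0.11 (SE) in M1 (adjusted p = 6.9e-14) and 2.03 ± 0.10 in M2 (adjusted p = 1.63e-08). The log2 ratio of Il1rn to the summed agonists had a median of 2.19 for M0, 2.50 for M1 and 3.64 for M2, that is 4.57, 5.67 and 12.5 times the agonist RNA. It differed between M1 and M0 by 0.10 (exact permutation p = 0.7) and between M2 and M0 by 1.33 (exact p = 0.1, adjusted p = 0.15), where 0.1 is the smallest p that 3 against 3 cultures can give. With scaled counts in place of normalized TPM, the difference between M1 and M0 was 0.60 (exact p = 0.1).

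The receptors moved in M2. Il1rl1 was at 2.50, 2.63 and 2.53 normalized TPM in M0, at 1.98, 2.22 and 1.96 in M1 and at 39.8, 38.1 and 38.9 in M2, with a log2 fold change of 3.71 ± 0.07 (SE) in M2 (adjusted p = 2.81e-11). Il1r1 was at 2.30, 3.05 and 2.19 in M0 and at 11.6, 13.6 and 12.7 in M2, with a log2 fold change of 2.26 ± 0.12 (adjusted p = 1.88e-08). Il1rap was at 4.06, 3.74 and 3.51 in M0 and at 12.5, 11.1 and 12 in M2, with a log2 fold change of 1.62 ± 0.08 (adjusted p = 1.13e-08). For these receptors all M2 cultures were above all M0 and M1 cultures. Such separation was common among genes averaging 1 normalized TPM or more. Of these, 42.66% lay wholly higher in M2 than in M0 and 35.54% wholly lower. Against M2, 43.37% lay wholly lower in M1 and 44.72% wholly higher. In M1, the log2 fold change was 0.60 for Il1r1 (adjusted p = 0.00391), -0.43 for Il1rl1 (adjusted p = 0.0191) and -0.11 for Il1rap (adjusted p = 0.509), all under 2-fold and not called. Fibroblast markers moved with the state as well. Their summed level was 549.5 to 823.6 in M0, 350.5 to 399.9 in M1 and 1039 to 1147 in M2, with none of the 6 at 0 in any state. Of 5 tested, Pdgfra (log2 fold change of 1.16) and Dcn (2.78) were called higher in M2, and Pdgfra (-2.03), Pdgfrb (-2.09) and Col1a2 (-1.04) lower and Dcn (4.48) higher in M1. Of 6 endothelial markers, Vwf was called higher in M2 (1.26), and 3 were called lower in M1. The part of such cells in the receptor levels was not tested.

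Il18 was at 23.3, 22.9 and 25.8 normalized TPM in M0, at 89.4, 92.8 and 85.5 in M1 and at 21.8, 17.4 and 15.2 in M2. It rose in M1, by a log2 fold change of 1.91 ± 0.07 (SE) (adjusted p = 1.4e-10), and the change of -0.47 in M2 was under 2-fold (adjusted p = 0.0066). Il18rap was at 1.1 to 1.35 in M1, 1.1 to 1.51 in M2 and 1.23 to 1.89 in M0 and was not called. The decoy Il1r2 was near the detection limit, with 8, 5 and 14 counts in M0, 14, 12 and 15 in M1 and 6, 9 and 5 in M2. It was called higher in M1 (log2 fold change of 1.44 ± 0.41, adjusted p = 0.00583). Il33 had 35, 14 and 42 counts in M1, 0, 0 and 1 in M0 and 2, 0 and 0 in M2. Relative to all counts, Il33 was 95.5 times higher in M1 than in M0, with a 95% exact interval of 16.7 to 3811 for counting error only.

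Directly compared, M1 had higher Il1a, Il1b, Il1rn, Il1r2, Il33 and Il18 than M2 and lower Il1r1, Il1rap and Il1rl1, with 20.1% and 27.9% of all genes called higher and lower. Only Il18rap was not called. The log2 differences were 6.54 for Il1b, 4.82 for Il1rn, 4.33 for Il1a and 2.27 for Il18, and -4.23 for Il1rl1, -1.85 for Il1rap and -1.74 for Il1r1. No call in these 3 comparisons was lost in edgeR fits that left out 1 culture.

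**Figure D4:**
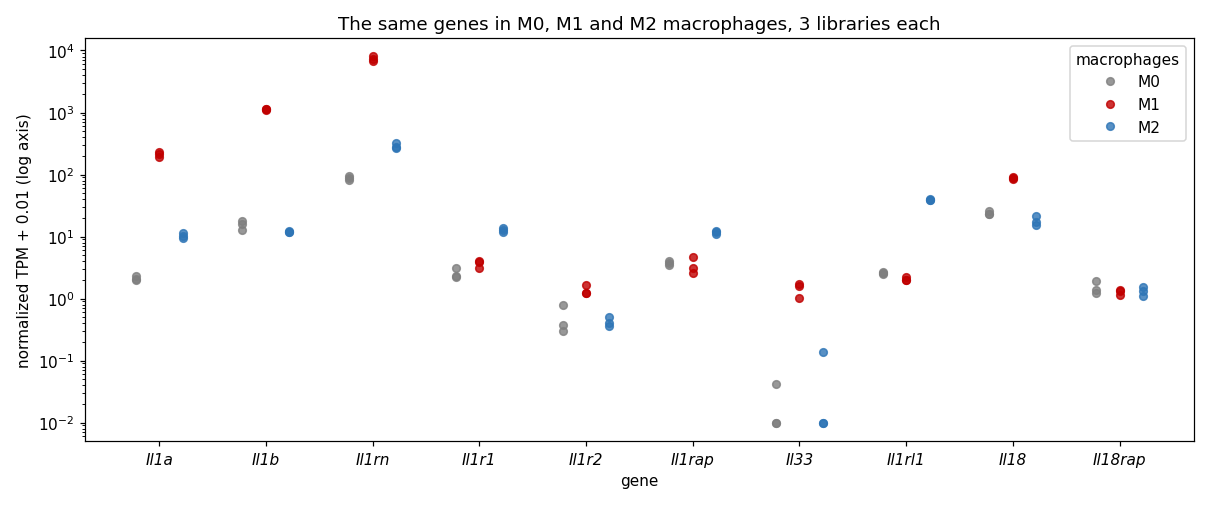
Normalized TPM + 0.01 (log axis) of the 10 members in 3 libraries each of M0 (grey), M1 (red) and M2 (blue) macrophages. Il1a, Il1b, Il1rn and Il18 are highest in M1 (Il1rn at 6649 to 8096), and Il1r1, Il1rap and Il1rl1 are highest in M2 (Il1rl1 at 38.1 to 39.8).

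**Figure D5:**
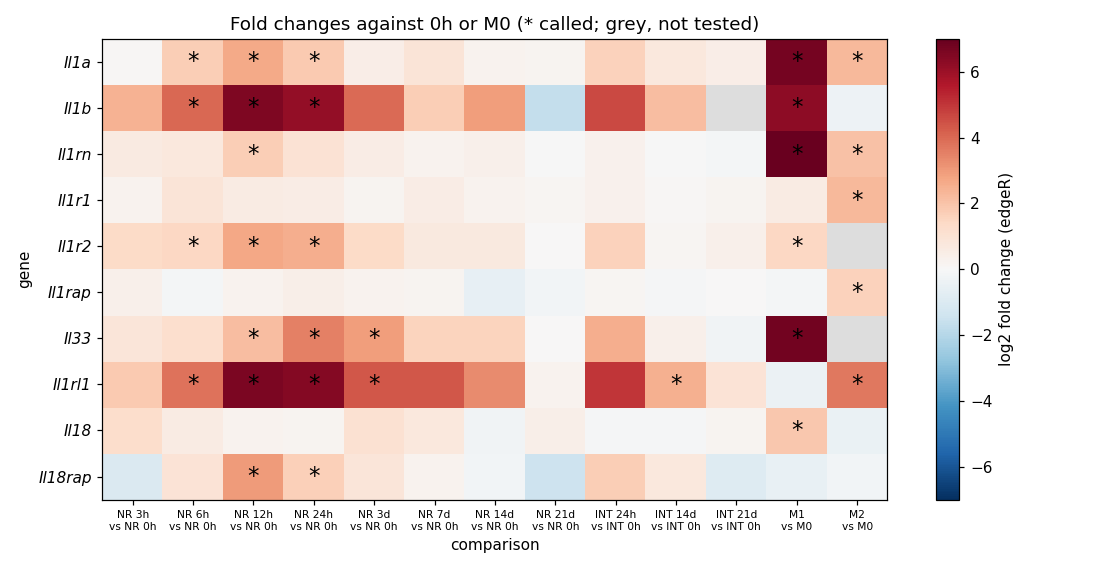
Log2 fold change (edgeR, colour scale) of the 10 members (rows) in each NR or INT time against 0h of the same group and in M1 and M2 against M0 (columns), with an asterisk where the gene was called and grey where it was not tested. Il1rl1 was called from NR 6h to 3d, at INT 14d and in M2, and the colour of Il33 in M1 rests on 1 count in M0.

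The other genes of the pathway were examined at NR 12h and in M1, where 6.76% and 20.1% of all genes were called higher and 4.64% and 26% lower. Of 14 tested genes known to be induced by IL-1, and also by other stimuli, 12 were called higher at NR 12h, with a median log2 fold change of 4.99. They include Csf3, the neutrophil growth factor G-CSF, which had 0 counts at 0h and was at least 11.5-fold higher at 12h (floor of 3 counts per library), the stromelysin Mmp3 (log2 fold change of 7.52, adjusted p = 0.000231) and the neutrophil chemokine Cxcl5 (7.49, adjusted p = 0.000593). Nfkbia and Saa3 were not called. In M1, all 13 tested were called higher, among them the acute phase gene Saa3 (10.11), Il6 (873 times higher, with a 95% exact counting interval of 374 to 2691, from 5 counts in M0) and Csf3 (at least 36.5-fold). Thus Saa3 was called in M1 but had 1.86 at NR 12h (adjusted p = 0.201). M1 was treated with interferon-gamma and lipopolysaccharide. Which stimulus acted on these genes in the digits was not tested.

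Of 6 tested genes for processing of the ligands, 2 were called higher at NR 12h: the inflammasome sensor Nlrp3 (log2 fold change of 6.32, adjusted p = 0.00128) and the inflammatory caspase Casp4 (1.87, adjusted p = 0.00769). Casp1, which cleaves the precursors of IL-1 beta and IL-18, had -0.44 at NR 12h (adjusted p = 0.0995) and was called higher in M1 (3.49). In M1, 5 of 8 were called higher, led by Casp4 (4.34), Casp1 and the pore former Gsdmd (2.43), and 2 lower, Nlrp1b (-3.32, with reads that may be shared with its paralogs) and the adaptor Pycard (-1.79). Of 10 genes for signalling, 2 were called higher at NR 12h, the adaptor Myd88 (1.35, adjusted p = 0.00731) and Irak3, a negative regulator (1.1, adjusted p = 0.00714), and 3 in M1, Irak2 (2.77), Irak3 (2.50) and Myd88 (2.06), a share near that of all genes there. Of 9 other tested members of the wider family, the IL-36 agonists Il1f9 (1.83, adjusted p = 0.0114) and Il1f8 (1.24, adjusted p = 0.0217) were called higher at NR 12h. In M1, Il1f6 (at least 6.79-fold), Il1f9 (5.28) and Il18bp, the soluble inhibitor of IL-18 (4.77), were called higher of 6 tested, and the inhibitory receptor Sigirr lower (-1.27).

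Genes whose levels were most like each member's over the 41 digits were found by Spearman's rho over 13691 genes. For Il1b they were Cxcl2 (0.943), Slfn4 (0.9) and Cd300lf (0.9), and for Il1rl1 Adam8 (0.909), Akr1b8 (0.892) and Mmp3 (0.886). For Il33 they were Ptpre (0.864), Cxcl2 (0.839) and Acod1 (0.837), and for Il18rap Trem1 (0.836), Dsc2 (0.83) and Cd300lf (0.813). Hence Cxcl2 was among the 3 most like genes of both Il1b and Il33, and Cd300lf of both Il1b and Il18rap. For Il1a they were Txnrd1 (0.837), Prss22 (0.801) and Gm5416 (0.782), and for Il1r2 Plaur (0.797), Prss22 (0.791) and Tnf (0.778). For Il1rn they were Fbxo30 (0.762), Tiparp (0.761) and Azin1 (0.754), and for Il18 Adgrf4 (0.772), Them5 (0.727) and Cyp2b19 (0.723). The values were lower for Il1r1, with Ptk2 (0.652), Tacr1 (0.65) and Itpripl2 (0.644), and for Il1rap, with Caprin1 (0.631), Atp2a2 (0.606) and Nf2 (0.601). These digits share time and marker levels, so the correlations describe likeness only.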

How the data were processed

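RNA of 41 digits and 9 macrophage cultures was analysed, grouped by GEO's labels. The authors mapped single-end reads of poly(A)+ libraries to mouse genes (mm10, the GRCm38 assembly) with Bowtie and deposited the expected counts of RSEM 1.2.3, which hold no normalization. The deposited normalized TPM (signal) are TPM that the authors brought to a shared scale with median-by-ratio factors, separately for digits and macrophages.

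Expected counts were rounded and groups were compared pair by pair with edgeR 4.0.16 in R 4.3.3 (filterByExpr, TMM, quasi-likelihood test), adjusted over all tested genes by Benjamini-Hochberg. The study's EBSeq was not used here, but its thresholds were kept: adjusted p below 0.05 and a mean normalized count, plus 1, that differs by more than 2-fold. Ratios within libraries were tested by two-sided exact permutation (scipy 1.17.1). The fits were tested on simulated data. The date in the digit labels gave an earlier (24 digits) and a later (17 digits) period, whose meaning the labels do not give. Replicates differed beyond counting error, with a chi-square per degree of freedom of 3.05 to 412 over 55 pairs. Depth, at 1468749 to 27904773 counts per library, limits the low genes most.

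Alternatives were DESeq2 1.42.0, RLE scaling, no filter on low counts, no fold threshold, limma 3.58.1 on log2 of normalized TPM plus 1 or 0.1, all digits or all macrophages in 1 fit, the date period as a term, a replicate block for macrophages, and leaving out each library. The members, the pathway and marker lists and the likeness rule (3 genes with the highest rho) were chosen with earlier results of these data known. From each pathway list, the up to 3 called genes with the largest rise and fall at NR 12h and in M1 are named. The genes Nfkbia and Casp1 at NR 12h, Saa3 at NR 12h, Hdc and the fibroblast and endothelial markers were named after their values were seen. Regenerative digits were not analysed here, and 1 further promoter motif is not reported here.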

Additional observations from a re-analysis of the deposited data

Results flagged for a closer look

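In the 5 digits of NR 7d, the log2 ratio of Il1r2 to Il1r1 was -7.94 in replicate 2, far below the other 4 digits: its gap to the nearest of them was 0.857 of the whole range of the group. Il1r2 was at 0 in this digit and Il1r1 at 24.4 normalized TPM. The same library stood apart from its group over genes averaging 1 normalized TPM or more. The 10 members and 2 ratios were tested in this way in NR 7d, the 1 group of sufficient size, so the 12 tests share the same 5 digits. For a single such test, chance alone is expected to mark about 1 in 20.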

How the results depend on the processing

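Over the called member and comparison pairs (42 in all), 27 were called under every alternative run and 33 in every fit that left out 1 library. Of 602 single-gene values under an alternative, 525 kept the call, 77 kept the direction without the call and 0 reversed. Fitting all digits together changed many member counts: with that fit the number called was 1 instead of 4 at NR 6h, 4 instead of 7 at 12h, 3 instead of 6 at 24h, 1 instead of 2 at 3d, 1 instead of 0 at 7d, 14d and INT 24h, and 0 instead of 1 at 12h against 6h, 3d against 24h and INT 14d. Adding the date period to this fit, the counts were the same except 2 instead of 7 at 12h. In the same fit without the digits that stood apart, an alternative chosen after seeing the data, the counts were 3 at 6h, 6 at 12h, 5 at 24h, 1 at 3d, 7d, 14d and INT 24h and 0 at 12h against 6h, 3d against 24h and INT 14d. DESeq2 called 1 at 3h, 7d and 14d, 4 at 12h against 6h, 2 at 3d against 24h and 3 at INT 24h. Without the filter on low counts, 1 was called at 7d, 2 at 12h against 6h, 2 at 3d against 24h and 3 at INT 24h. With limma, 0 were called at 3d against 24h and INT 14d with either pseudocount, 1 at 7d with 1 added and 1 at INT 24h with 0.1 added. The shares of all genes called under these alternatives are not given, so the member counts are not set against a background. The causes of these shifts were not tested.

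Leaving out 1 library gave 1 to 4 members called at NR 6h, 7 to 7 at 12h, 3 to 7 at 24h, 2 to 5 at 3d, 0 to 1 at 7d, 0 to 3 at 12h against 6h, 0 to 2 at 3d against 24h, 0 to 1 at INT 24h, 0 to 1 at INT 14d and 0 to 3 between INT and NR at 24h. These counts are given without the share of all genes called in each fit. The difference in the Il1rn ratio between acute and late digits was -1.37 in the later date period, and that of the Il1r2 ratio was 1.1 in the earlier, 0.98 in the later period and 1.51 with the 3h digits counted as acute, none past the threshold. The replicate numbers of the macrophages did not pair the cultures (correlations of -0.087 to 0.097 for the same number and of -0.085 to 0.111 for different ones), and with a replicate block 6, 5 and 9 members were called in M1 against M0, M2 against M0 and M1 against M2, as without it. Il33 and Il1r2 were called in M1 by the count tests but were below the level filter of limma. The median of all genes moved by over 0.1 on the log2 scale under 8 settings and comparisons, at most by -0.22 (limma with 0.1 added, NR 7d).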
